A study of Homo sapiens with 4 samples.

Results

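The proteasome is the protease that degrades ubiquitin-tagged proteins, and its subunit genes were examined here in U251-MG, an established human glioma line grown in culture, with and without overexpression of the collagen gene COL8A1. Members were the rows of the count table whose symbol has the form PSMA to PSMG followed by a number. The rule found 48 genes among 61806, and 46 of them had enough reads to be tested among 17030 tested genes. The rule itself uses names only, although the gene family was picked with earlier results of these data known.

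Total RNA was sequenced in 4 libraries. NC replicates 1 and 2 came from cells infected with a negative control lentivirus, and COL8A1 replicates 1 and 2 from cells infected with a lentivirus carrying COL8A1. Both inserts were cloned into the same plasmid, pCDH-CMV-MCS-EF1-puro, in which a CMV promoter drives the insert, and the labels call the line WT in both groups. Whether the infected cells were single clones or pools, when they were harvested, and whether a group's libraries were separate cultures is not given in the sources used here, so every p-value rests on the spread among these 4 libraries, and that spread may be technical.

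The 20S core is a barrel of stacked rings, with PSMA products in the outer rings and PSMB products in the inner rings, where PSMB5, PSMB6 and PSMB7 carry the cutting sites. The 19S cap, built from PSMC ATPases and PSMD subunits, recognises, unfolds and feeds in the tagged substrate. Interferon-gamma induces PSMB8, PSMB9 and PSMB10, which replace PSMB5, PSMB6 and PSMB7 respectively in newly built particles, together with the activator subunits PSME1 and PSME2. This form, the immunoproteasome, is abundant in immune cells and makes peptides suited to class I antigen presentation.

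Total counts ran from 27923796 to 33576228, and the 48 members took between 0.563% and 0.589% of each library. The overexpressed gene COL8A1 had 77 and 82 counts in NC and 4290 and 2259 in COL8A1 replicates 1 and 2, in the direction of the labels. All 10 glioma and astrocyte markers were detected, with summed CPM (counts scaled to a common library size) of 5587 to 6197 in NC and 5956 to 6661 in COL8A1 cells, although GFAP had only 21, 19, 65 and 51 counts. All 10 had estimates above 0 in COL8A1 cells (median log2 fold change 0.212), edgeR called 0 of them and DESeq2 called 2, SLC1A3 and FABP7, and their part in the results below was not tested. Of 10 immune markers, 8 stayed under 1 CPM in every library, among them CD3E, MS4A1 and AIF1 with 0 counts throughout, with summed levels of 4.63 to 5.31 CPM in NC and 5.37 to 6.45 CPM in COL8A1 cells. Summed levels of endothelial markers were 65.0 to 66.2 and 62.5 to 80.1 CPM in the same order. Those of neuronal markers were 53.8 to 61.7 and 48.3 to 53.2 CPM. Those of epithelial markers were 379.9 to 466 and 420.1 to 496 CPM. Few genes carried these sums. LCP1 (3.20 to 5.22 CPM) made up most of the immune sum and CDH5 (60.1 to 78.3 CPM) most of the endothelial sum. SYT1 and STMN2 carried the neuronal sum, and KRT8 and KRT18 the epithelial sum. In each of the endothelial, neuronal and epithelial lists, 2 of 5 markers stayed under 1 CPM in every library.

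Promoter sequences are shown first, because 3 of the 5 immunoproteasome genes share a string of letters there that the naming rule did not use. RefSeq start sites (GRCh38.p14) gave a window of 250 bases before to 50 after the start for 42 of the 48 members. PSMA7, PSMB1, PSMB6, PSMB7, PSMD4 and PSMG3 had no entry. The core repeat of the interferon-stimulated response element, GAAA followed after 2 bases of any kind by a further GAAA, was searched on both strands. It occurred in 6 of 42 member windows (14.3%) and in 996 of 27305 windows of all genes (3.65%). The 3 immunoproteasome genes that held it were PSMB10, PSME1 and PSME2. The other holders were PSMA4, PSMB4 and the assembly chaperone gene PSMG4. In 4 of the 6 the 10 letters were identical, GAAAGCGAAA, which occurred in 30 of all 27305 windows (0.11%). This exact string was picked after the matches were seen. The stretches below run 5′ to 3′ on the gene's strand, and capitals mark the match.

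PSMB10: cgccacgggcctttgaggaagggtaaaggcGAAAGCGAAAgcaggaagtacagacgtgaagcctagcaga
PSME1: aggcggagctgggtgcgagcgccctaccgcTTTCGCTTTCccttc
PSME2: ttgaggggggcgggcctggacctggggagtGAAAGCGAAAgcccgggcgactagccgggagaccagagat
PSMG4: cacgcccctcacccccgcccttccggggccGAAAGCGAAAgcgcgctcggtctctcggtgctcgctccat

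The windows they come from are chr16:67936801-67937100 (minus strand) for PSMB10, chr14:24135944-24136243 (plus) for PSME1, chr14:24146561-24146860 (minus) for PSME2 and chr6:3258697-3258996 (plus) for PSMG4. Counted from the first transcribed base as 1, with no position 0, the capitals begin at −21, 6, −28 and −33. In PSME1 the repeat reads on the opposite strand. The windows of PSMB8 and PSMB9 did not hold the repeat, which says nothing about factors acting elsewhere.

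A second search used TGACNNNGC, the core of the antioxidant response element bound by NFE2L1 and NFE2L2 with small MAF proteins. NFE2L1 is the factor that restores proteasome gene transcription when the particle is blocked. The letters occurred in 13 of 42 member windows (31%) and in 13.6% of all windows, and no match overlapped a match of another motif searched. The holders included the immunoproteasome genes PSMB9, PSME1 and PSME2, and these 4 stretches show genes of other roles.

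PSMB3: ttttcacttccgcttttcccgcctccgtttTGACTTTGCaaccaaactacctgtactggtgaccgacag
PSMD12: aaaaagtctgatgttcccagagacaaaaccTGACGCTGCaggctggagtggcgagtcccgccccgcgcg
PSMD5: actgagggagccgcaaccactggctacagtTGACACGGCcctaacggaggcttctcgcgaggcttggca
PSMG1: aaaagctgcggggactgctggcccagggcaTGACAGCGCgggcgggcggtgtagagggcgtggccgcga

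They lie in chr17:38752491-38752790 (plus strand) for PSMB3, chr17:67366528-67366827 (minus) for PSMD12, chr9:120842873-120843172 (minus) for PSMD5 and chr21:39183402-39183701 (minus) for PSMG1. The interferon-gamma motif TTCNNNGAA occurred in 5 of 42 member windows (11.9%), none of them of an immunoproteasome gene, and in 7.88% of all windows. Its holders were PSMA2, PSMA8, PSMC4, PSMD3 and PSME3. Each match is a description of letters, not a shown binding site.

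The comparison between vectors asks whether COL8A1 overexpression went with other levels of proteasome transcripts. In bulk RNA, fewer expressing cells and less RNA per cell cannot be told apart. No member passed the edgeR threshold (adjusted p under 0.05 over all 17030 genes tested), a threshold that 0.0117% of all genes passed. The overexpressed COL8A1 itself, with a log2 fold change of 5.45 (SE 0.315), did not pass it either (edgeR adjusted p = 0.0681, limma-voom 0.202), while DESeq2 called it (adjusted p = 6.25e-72). DESeq2 called 0 members against 1.06% of all genes, and limma-voom called 0 against 0.0117%. At an unadjusted edgeR p under 0.05, 1 member was lower (2.63% of all genes) and 0 were higher (3.44%). The smallest adjusted edgeR p of any member was 0.724.

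Of the 46 tested members, 42 had a log2 fold change (COL8A1 over NC) between −0.25 and 0.25. The other members were PSME3, PSMA1, PSMC5 and PSMB9, of which only PSMB9 had under 1000 counts per library. The 95% interval of the edgeR fit reached a median of 0.246 to either side of the estimate, and for 44 members it lay wholly within a 2-fold change in either direction. The exceptions were PSME3 and PSMB9. None of the 46 differed over 2-fold between libraries of a group, against 16.5% of all genes tested. The members are better counted than most genes, with a median of 3398 counts per library against 530.5, and 43 of them had at least 1000 counts in every library.

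**Figure D1:**
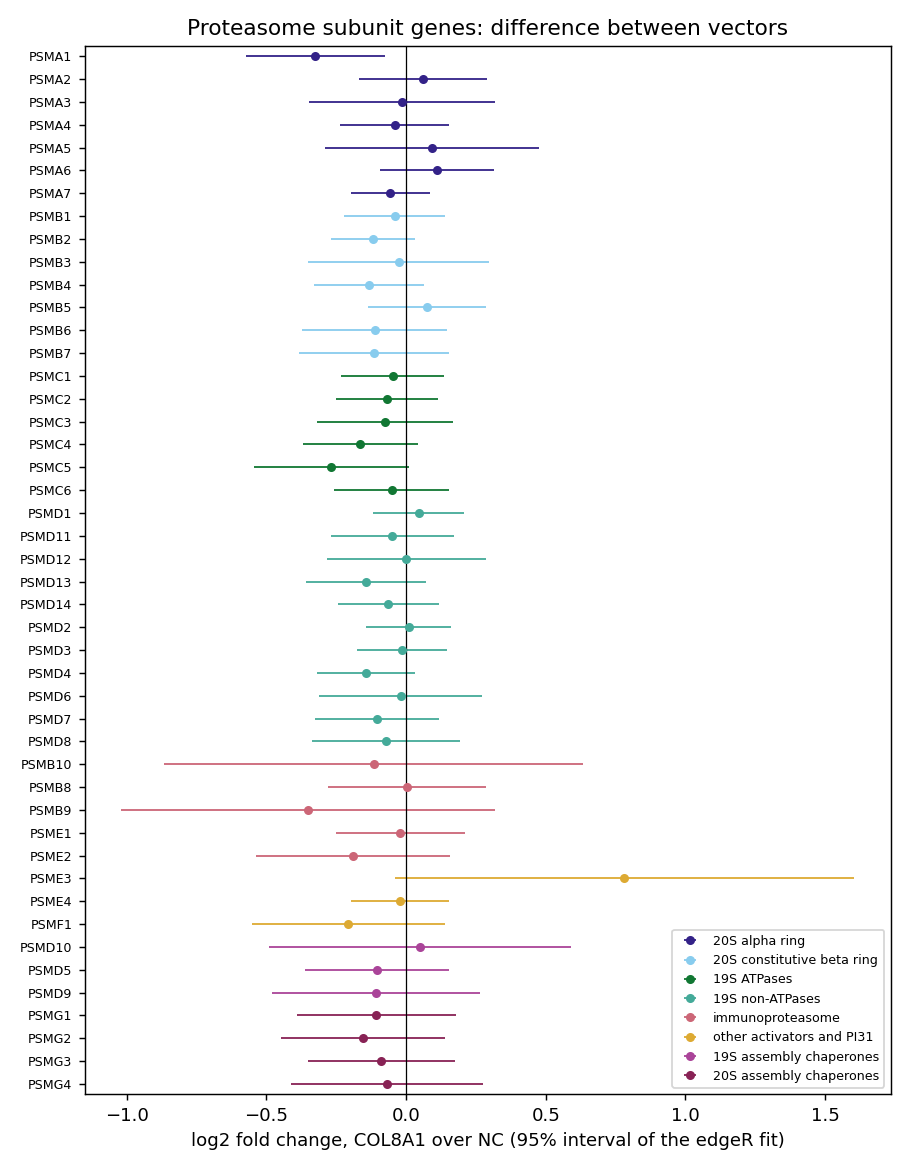
Log2 fold change (COL8A1 over NC, horizontal axis) of the 46 tested proteasome genes, coloured by role, with bars for the 95% interval of the edgeR fit. The interval of PSMA1 is the only one that leaves out 0, and PSME3 stands apart with an estimate of 0.78 and the widest interval.

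Most members leaned slightly to the lower side in COL8A1 cells. Estimates were below 0 for 36 of 46 members and above 0 for 10, with a median of −0.066, where 49.8% of all genes tested were below 0 and their median was 0.001. In 13 members both COL8A1 libraries lay below both NC libraries, against 18.6% of all genes tested, and in 3 both lay above, against 18.9%. These leanings come from genes that share libraries and are no independent evidence of a shift.

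The lean was strongest in 1 library. COL8A1 replicate 1 was the lowest of the 4 libraries for 28 of 46 members, against 27.0% of all genes tested. The median deviation of the members from their own means was 0.053 in NC replicate 1, 0.030 in NC replicate 2, −0.072 in COL8A1 replicate 1 and 0.009 in COL8A1 replicate 2 on the log2 scale. The COL8A1 libraries thus lay farther from each other than COL8A1 replicate 2 lay from the NC libraries. Without COL8A1 replicate 1, 29 of 46 members were below 0 with a median of −0.020, against 51.5% of all genes and a median of −0.008. Without COL8A1 replicate 2, 38 were below 0 with a median of −0.117, against 50.4% and −0.003. Without NC replicate 1, 35 were below 0 (median −0.062), and without NC replicate 2, 33 were (median −0.092). The shares of all genes were then 49.3% and 49.2%. What sets COL8A1 replicate 1 apart was not tested.

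**Figure D2:**
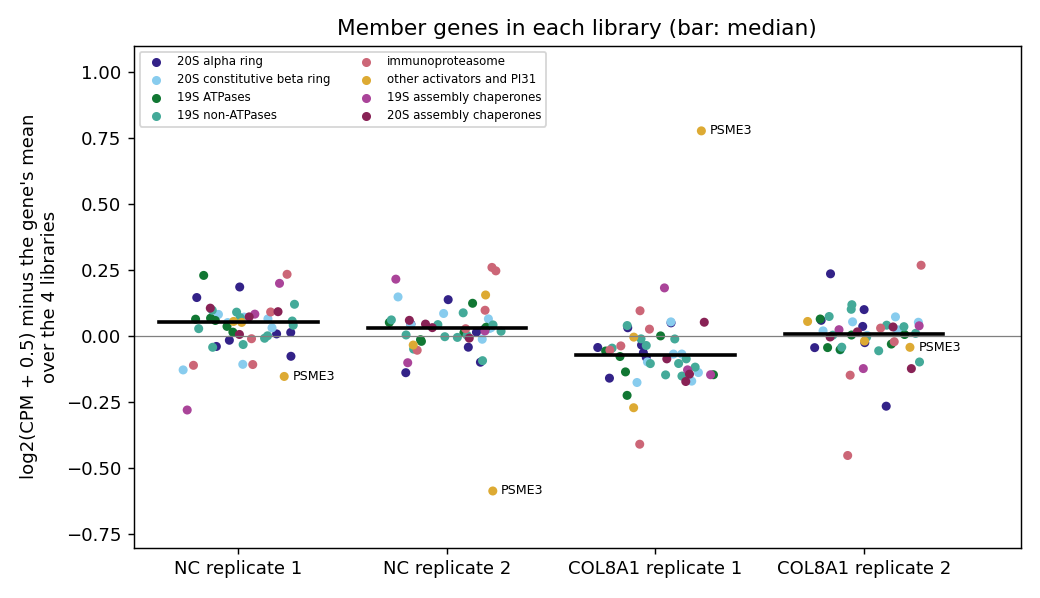
Log2(CPM + 0.5) of each tested member minus its mean over the 4 libraries (vertical axis), by library. Points are genes coloured by role and black bars are medians. The bar of COL8A1 replicate 1 is the lowest at −0.072, while PSME3 is highest in that same library.

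Core, regulatory and immunoproteasome genes all had medians below 0, and differences between these classes were not tested. The median log2 fold change was −0.041 for the 14 tested genes of the constitutive core, −0.057 for the 20 regulatory genes (cap subunits, PSME3, PSME4 and PSMF1) and −0.116 for the 5 immunoproteasome genes. The median of a class varied between libraries of a group with an SD of 0.0494, 0.0484 and 0.0544 in the same order. Below 0 were 10 of 14, 16 of 20 and 4 of 5 members, and the 7 assembly chaperones had 6 below 0 and a median of −0.103. The immunoproteasome median shrank to −0.004 without NC replicate 2 and to −0.020 without COL8A1 replicate 1. The core median was 0.000 without COL8A1 replicate 1 and −0.112 without COL8A1 replicate 2, and the regulatory median was −0.024 and −0.115.

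The proportion between the classes was steady. Summed regulatory CPM was 1.51 and 1.45 times summed core CPM in NC replicates 1 and 2, and 1.53 and 1.49 times in COL8A1 replicates 1 and 2. The regulatory sum includes PSME3, at 210.6 CPM in COL8A1 replicate 1 and 81.5 to 119.1 CPM in the other libraries. The immunoproteasome genes made up 3.12% and 3.21% of all member CPM in NC and 3.14% and 3.04% in COL8A1 cells. The groups overlapped in both of these proportions. The summed CPM of the core itself was 2154 and 2179 in NC and 2020 and 2142 in COL8A1 cells. That of the immunoproteasome genes was 184.7 and 188.5 in NC and 175.8 and 177.1 in COL8A1 cells. Neither sum overlapped between the groups. The regulatory sums did, at 3257 and 3163 in NC and 3094 and 3192 in COL8A1 cells. Differences between these sums were not tested.

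In the outer ring of the core, 7 of 8 PSMA genes were expressed. The exception was PSMA8, the testis form that replaces PSMA7, with 0 counts in all 4 libraries, which allows up to 0.089 to 0.108 CPM (3 counts per library, counting error only). PSMA1 had the smallest p of all members. Its level was 121.8 and 117.8 CPM in NC replicates 1 and 2, and 102.4 and 88.9 CPM in COL8A1 replicates 1 and 2. The groups did not overlap, and COL8A1 replicate 2 was the lowest. The log2 fold change was −0.33 (SE 0.095, 95% interval −0.57 to −0.075). The edgeR quasi-likelihood test gave an unadjusted p = 0.0212 and, after Benjamini-Hochberg adjustment, an adjusted p = 0.724. Leaving out a library gave estimates from −0.43 to −0.23. An unnamed gene sharing exons on the same strand had only 6, 14, 14 and 72 counts, and adding it to PSMA1 gave −0.31.

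The other ring members differed less. PSMA6 lay at 79.7 and 75.2 CPM in NC and at 83.5 and 84.0 CPM in COL8A1 cells, without overlap in the opposite direction (log2 fold change 0.11, SE 0.078, edgeR adjusted p = 0.852). An unnamed gene shares 919 exonic bases with PSMA6 on the same strand. It had 105 and 0 counts in NC, and 61 and 182 in COL8A1 replicates 1 and 2. Adding it to PSMA6 gave 0.15. PSMA7, the most abundant core gene per length, lay at 388 and 398 CPM in NC and at 377 and 379 CPM in COL8A1 cells (−0.057, SE 0.054). PSMA2, PSMA3, PSMA4 and PSMA5 all overlapped between the groups, with estimates from −0.041 to 0.093. An unnamed same-strand gene sharing exons with PSMA2 had 7 and 115 counts in NC, and 7 and 521 in COL8A1 replicates 1 and 2.

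In the inner ring, 6 of the 7 constitutive PSMB genes had estimates below 0 and PSMB5 was the exception. PSMB2 lay at 263.4 and 258 CPM in NC and at 239 and 242 CPM in COL8A1 cells (a log2 fold change of −0.12, SE 0.057, edgeR adjusted p = 0.835). PSMB4 was at 207.2 CPM in both NC libraries and at 179.9 and 198.4 CPM in COL8A1 replicates 1 and 2 (−0.13, SE 0.075, edgeR adjusted p = 0.835). Both parted the groups, though by less than the fit could call. PSMB1 (−0.041) and PSMB3 (−0.027) overlapped.

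Of the catalytic genes, PSMB5 encodes the chymotrypsin-like, PSMB6 the caspase-like and PSMB7 the trypsin-like site. PSMB5 lay at 103 and 113 CPM in NC and at 115 and 112.5 CPM in COL8A1 cells (a log2 fold change of 0.074, SE 0.080). PSMB6 lay at 132 and 127.5 CPM in NC and at 110.8 and 129.4 CPM in COL8A1 replicates 1 and 2 (−0.11, SE 0.099). PSMB7 followed the same order of libraries as PSMB6 in COL8A1 cells, with 106 and 110.3 CPM in NC and 91.9 and 107.9 CPM in COL8A1 replicates 1 and 2 (−0.12, SE 0.102). In both genes COL8A1 replicate 1 was lowest and the other COL8A1 library lay close to NC. PSMB11, the thymus form of the PSMB5 position, had 0 counts in all libraries, with the same upper limits as PSMA8.

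The immunoproteasome genes were expressed below their constitutive partners. PSMB8, the partner of PSMB5, lay at 52.6 and 60.7 CPM in NC and at 57.8 and 55.9 CPM in COL8A1 cells. The COL8A1 values fell between the NC values, and the log2 fold change was 0.004 (SE 0.107, 95% interval −0.28 to 0.29). PSMB9, the partner of PSMB6, lay at 8.15 and 9.23 CPM in NC and at 8.18 and 5.44 CPM in COL8A1 replicates 1 and 2. Its log2 fold change was −0.35 (SE 0.254, 95% interval −1.02 to 0.32, edgeR adjusted p = 0.856), and without COL8A1 replicate 2 it was −0.091. So its difference rested on that 1 library, which had 151 counts against 250 to 311 in the others. PSMB10, the partner of PSMB7, lay at 12.7 and 16.4 CPM in NC and at 10.2 and 16.6 CPM in COL8A1 cells (−0.12, SE 0.285). Its spread within each group exceeded the difference between groups. An unnamed gene shares 644 exonic bases with PSMB10 on the same strand. That gene had 207 and 125 counts in NC, and 173 and 106 in COL8A1 replicates 1 and 2. In each group its count was higher in the library where PSMB10 was lower. Adding it to PSMB10 gave −0.13, and this limit also holds for the ratio of PSMB10 to PSMB7.

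Per kilobase of annotated exons, PSMB8 stood at 30.1% and 31.6% of PSMB5 in NC and at 29.5% and 29.3% in COL8A1 cells. Both COL8A1 ratios were below both NC ratios, by a log2 difference of −0.068, with a two-sided exact permutation p of 0.333, the smallest that 4 libraries allow. PSMB9 stood at 2.91% and 3.41% of PSMB6 in NC and at 3.48% and 1.98% in COL8A1 cells (exact permutation p = 1). PSMB10 stood at 11.5% and 14.3% of PSMB7 in NC and at 10.7% and 14.8% in COL8A1 cells (exact permutation p = 1). Counting the activator ratios given further on, 5 ratios were tested, and adjustment cannot bring any of them below 0.333. Over the longest coding transcript in place of all exons, the ratios of PSMB8 to PSMB5 became 47.6% to 51.4%, of PSMB9 to PSMB6 4.62% to 8.12% and of PSMB10 to PSMB7 8.92% to 12.4%, so the partner stays ahead on either length but its lead depends on the gene model.

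**Figure D3:**
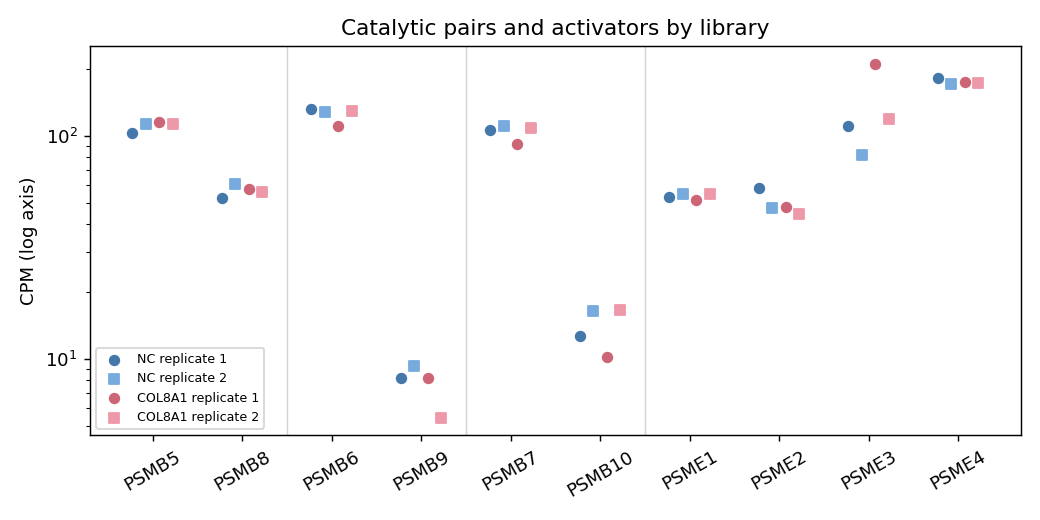
CPM on a log axis in each library for the 3 constitutive and immune catalytic pairs and for the activator genes PSME1 to PSME4. PSMB8, PSMB9 and PSMB10 lie below their partners in all 4 libraries. PSME3 is highest in COL8A1 replicate 1, at 210.6 CPM, and PSMB9 and PSMB10 also differ between the COL8A1 replicates.

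PSMB8 (chr6:32840717-32844703, minus strand) and PSMB9 (chr6:32844136-32859585, plus strand) are next to each other in the major histocompatibility complex and overlap, sharing 139 exonic bases in GENCODE 29, and PSMB8-AS1 overlaps both. Since the strand setting of the counting is not given in the sources used here, reads in the shared bases cannot be assigned. The sum of the 3 genes had a log2 fold change of −0.020. PSME1 (chr14:24136158-24138967) and PSME2 (chr14:24143362-24147570) are also neighbours, with 4394 bases between them.

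PSME1 and PSME2 encode the alpha and beta subunits of the interferon-inducible PA28 activator. PSME1 lay at 53.3 and 54.7 CPM in NC and at 51.7 and 54.8 CPM in COL8A1 cells (a log2 fold change of −0.020, SE 0.088). PSME2 lay at 58.1 and 47.5 CPM in NC and at 48.0 and 44.4 CPM in COL8A1 cells (−0.19, SE 0.133, edgeR adjusted p = 0.852). The NC libraries of PSME2 were farther apart than the group means, and its estimate was −0.040 without NC replicate 1 and −0.33 without NC replicate 2. Adding RNF31, which shares exons on the opposite strand, and a microRNA gene gave −0.10.

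PSME3 encodes PA28-gamma, a nuclear activator that is not interferon-induced, and it had the largest difference of any member. Its counts were 3383 and 2748 in the NC libraries against 6693 in COL8A1 replicate 1 and 3307 in COL8A1 replicate 2. On the CPM scale these are 110.3 and 81.5 in NC, and 210.6 and 119.1 in COL8A1 cells. COL8A1 replicate 1 was alone at the high level, and COL8A1 replicate 2 lay close to NC replicate 1. The log2 fold change was 0.78 (SE 0.312, 95% interval −0.041 to 1.60). The edgeR quasi-likelihood test gave an unadjusted p = 0.0581 and, after Benjamini-Hochberg adjustment, an adjusted p = 0.816. In DESeq2 the adjusted p was 0.400.

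Without COL8A1 replicate 1 the log2 fold change of PSME3 was 0.31, and without COL8A1 replicate 2 it was 1.13. BECN1, on the opposite strand, shares 300 exonic bases with PSME3 and had 1621, 2047, 2374 and 1618 counts, the most in COL8A1 replicate 1 as well. The sum of both genes gave 0.60. In the library where most members were lowest, then, PSME3 was at its highest.

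The ratio of PSME1 to PSME3 per kilobase was 140% and 194% in NC and 71.0% and 133% in COL8A1 cells, and that of PSME2 to PSME3 was 75.7% and 83.7% in NC and 32.8% and 53.7% in COL8A1 cells. Neither ratio overlapped between groups, with an exact permutation p of 0.333 for each, and both carry the COL8A1 replicate 1 value of PSME3. PSME4, the PA200 activator, lay at 181 and 171 CPM in NC and at 174 and 173 CPM in COL8A1 cells (a log2 fold change of −0.021, SE 0.066). PSMF1, which encodes the proteasome inhibitor PI31, lay at 105.1 and 112.7 CPM in NC and at 83.7 and 105.1 CPM in COL8A1 replicates 1 and 2 (−0.21, SE 0.131, edgeR adjusted p = 0.850). Here too COL8A1 replicate 1 was lowest, and the estimate was −0.051 without it and −0.38 without COL8A1 replicate 2.

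All 6 ATPase genes of the cap had estimates below 0, from −0.27 to −0.048, and none passed the test. PSMC5 lay at 235 and 205.3 CPM in NC and at 171.6 and 194.6 CPM in COL8A1 replicates 1 and 2. The groups were apart, but the NC libraries differed by more than the nearest libraries of the 2 groups. Its log2 fold change was −0.27 (SE 0.105, 95% interval −0.54 to 0.010, edgeR adjusted p = 0.816), and it was −0.17 without NC replicate 1 and −0.18 without COL8A1 replicate 1. PSMC5 shares 874 exonic bases with FTSJ3 on the opposite strand, and the sum of both gave −0.20. PSMC4 lay at 127 and 135.4 CPM in NC and at 113 and 121.6 CPM in COL8A1 cells (−0.16, SE 0.078, edgeR adjusted p = 0.835). PSMC2 parted the groups by a narrower margin (−0.069, SE 0.069), and PSMC1, PSMC3 and PSMC6 overlapped.

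Among the 11 non-ATPase subunits of the cap, 8 estimates were below 0 and 3 above. PSMD4, a ubiquitin receptor, lay at 174.6 and 168 CPM in NC and at 151.7 and 158 CPM in COL8A1 cells (a log2 fold change of −0.14, SE 0.067, edgeR adjusted p = 0.835). PSMD13 lay at 88.2 and 82.1 CPM in NC and at 78.5 and 75.7 CPM in COL8A1 cells (−0.14, SE 0.082). PSMD7 was at 83.3 and 84.4 CPM in NC and at 74.5 and 81.5 CPM in COL8A1 cells (−0.10, SE 0.084). These 3 and the deubiquitinase gene PSMD14 (−0.063) had both COL8A1 libraries below both NC libraries. Of all genes tested, 18.6% did so. PSMD1, a scaffold of the cap base, went the other way, at 197.6 and 190.8 CPM in NC and 203 and 197.9 CPM in COL8A1 cells. Its groups were parted only narrowly, with an estimate below its SE (0.046, SE 0.062). PSMD2, the other scaffold and the highest of the non-ATPase genes per kilobase of exons, lay at 392 and 394 CPM in NC and at 385 and 406 CPM in COL8A1 cells (0.009, SE 0.058).

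The assembly chaperones do not remain in the finished particle. PSMD5, PSMD9 and PSMD10 help build the cap, and their estimates were −0.10, −0.11 and 0.049. PSMD10, which encodes gankyrin, varied most among these within the groups, with 61.4 and 86.8 CPM in NC and 84.8 and 68.5 CPM in COL8A1 cells. The core chaperone genes PSMG1, PSMG2, PSMG3 and PSMG4 were all below 0, from −0.15 to −0.068. PSMG2 lay at 40.3 and 38.6 CPM in NC and at 33.1 and 37.8 CPM in COL8A1 cells (−0.15, SE 0.111, edgeR adjusted p = 0.856) and was the only chaperone gene whose groups did not overlap. Its estimate was −0.061 without COL8A1 replicate 1, −0.26 without COL8A1 replicate 2 and −0.018 when summed with CEP76 and SPIRE1, which share exons on the opposite strand. SPIRE1 had more counts than PSMG2 in every library, so that sum follows other genes more than PSMG2. For PSMG4 the sum with SLC22A23 and TUBB2B, which share its exons on the opposite strand, gave 0.15. SLC22A23 had 2189 and 2480 counts in NC against 464 and 530 for PSMG4. In COL8A1 cells it had 2667 and 2256 against 497 and 383. This sum is therefore mostly the change of the other genes and no estimate for PSMG4 itself.

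Although the core holds each subunit in equal number, transcript levels differed widely among subunits. In mean CPM per kilobase of exons over the 4 libraries, the constitutive inner ring ran from 51.7 for PSMB2 to 139.5 for PSMB3, a 2.7-fold range. The outer ring ran from 12.4 for PSMA6 to 220.3 for PSMA7, a 17.8-fold range, with the next highest, PSMA1, at 32.6. Over the longest coding transcript these ranges became 3.58-fold and 13.6-fold. PSMA5 then took the lowest place in the outer ring at 28.5, and PSMA6 moved up to the next highest after PSMA7 at 78.3. The order below PSMA7 thus depended on the gene model. PSMA7 led the outer ring on both lengths.

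Cap ATPase genes ran from 11.9 for PSMC6 to 89.1 for PSMC3 and non-ATPase genes from 10.9 for PSMD6 to 72.3 for PSMD2, again per kilobase of exons. On the transcript length the lowest were PSMC1 and PSMD13 instead, and PSMD3 replaced PSMD2 at the top. Immunoproteasome genes ran from 2.52 for PSMB9 to 30.1 for PSME1, and PSMG4 was the lowest of all tested members at 1.45. PSMB9 and PSMG4 stayed lowest in their groups on either length.

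**Figure D4:**
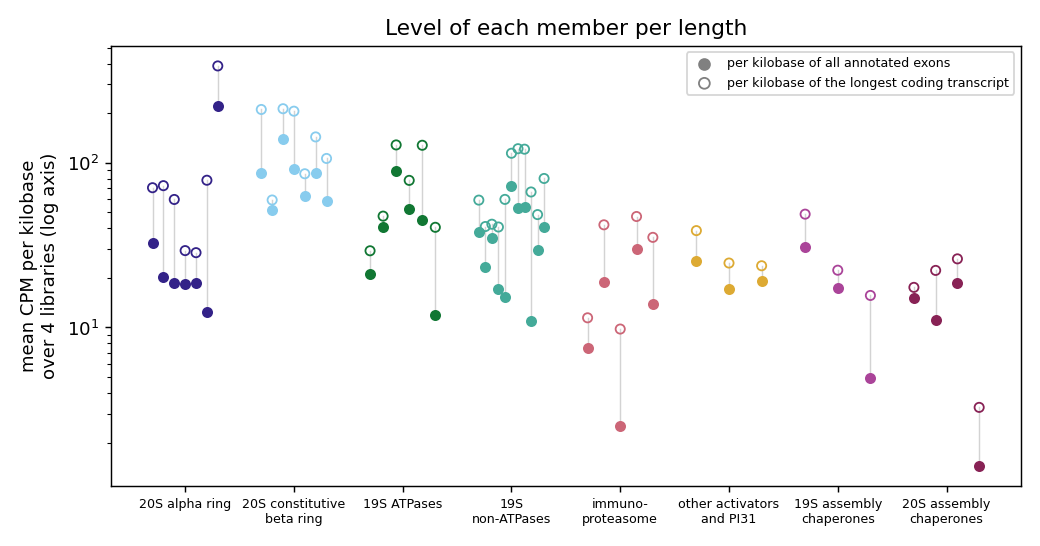
Mean CPM per kilobase over the 4 libraries on a log axis, by role, with filled points for the length of all annotated exons and open points for the longest coding transcript of the same gene. PSMA7 tops the outer ring on both lengths, at 220.3 and 387 CPM per kilobase, and PSMG4 lies lowest.

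Lists of related genes outside the naming rule were fitted in the same model. Of 15 other proteasome parts and regulators, 9 had estimates below 0 (median −0.038) and 0 passed in edgeR or DESeq2. The smallest p-values were those of DDI2, the protease that activates NFE2L1 (log2 fold change −0.13, SE 0.069), NFE2L2 (−0.22, SE 0.146) and NFE2L1 itself (0.20, SE 0.177). The NFE2L2 estimate was −0.037 without NC replicate 1 and −0.38 without NC replicate 2. NFE2L1 lay at 317.5 and 222.7 CPM in NC and at 314 and 306 CPM in COL8A1 cells, so its NC libraries enclosed the COL8A1 libraries. The 13 members with TGACNNNGC in the promoter window had 11 estimates below 0 and a median of −0.103, and the other 27 tested members with a window had 19 below 0 and a median of −0.051. The 6 members with the interferon repeat all had estimates below 0 (median −0.092), against 24 of the other 34 (median −0.050). Of the 4 tested members with TTCNNNGAA, 2 were below 0 (median 0.024), against 28 of the other 36 (median −0.066). None of these splits was tested.

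Of 14 ubiquitin and shuttle genes, 9 had estimates below 0 (median −0.039). The edgeR test called 0 of them, with 2 below an unadjusted p of 0.05, both lower, while DESeq2 called 1. RPS27A, which encodes ubiquitin fused to a ribosomal protein, lay at 551.6 and 530.6 CPM in NC and at 460.6 and 508.7 CPM in COL8A1 replicates 1 and 2. The groups did not overlap, and COL8A1 replicate 1 was the lowest (−0.16, SE 0.071, edgeR adjusted p = 0.832).

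Interferon regulators and class I loading genes had 8 of 15 estimates below 0, a median of −0.003 and 0 calls in edgeR or DESeq2. ERAP1, a peptide-trimming enzyme, lay at 38.02 and 38.01 CPM in NC and at 31.3 and 30.5 CPM in COL8A1 cells (a log2 fold change of −0.30, SE 0.092, edgeR adjusted p = 0.745). The peptide transporter chain TAP2 (−0.22, SE 0.092) and the loading factor TAPBP (0.18, SE 0.083) parted the groups in opposite directions. TAP1, the other transporter chain, whose annotated extent lies inside that of PSMB9, was at 96.9 and 100.3 CPM in NC and at 100.2 and 88.3 CPM in COL8A1 replicates 1 and 2. It had the same library lowest as PSMB9.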

How the data were processed

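The authors deposited raw read counts per gene for 4 libraries. The submitters' processing notes list hg38, HISAT2 2.2.1, Trim Galore 0.6.9 and featureCounts with the version 0.3. The sources used here do not give parameters, strand setting or annotation release. One line that named no gene and held 0 reads was left out. Counts were tested in R 4.3.3 with edgeR 4.0.16 (filterByExpr, TMM, quasi-likelihood F-test, group as the only term, 2 residual and 2.64 prior degrees of freedom) and adjusted by Benjamini and Hochberg over 17030 genes. SE is the absolute log2 fold change over the square root of F, and 95% intervals use 4.64 degrees of freedom. CPM use TMM-scaled library sizes. PCR copies count as separate reads. Members, lists and tests were chosen with earlier results of these data known. Named were the immunoproteasome genes with their partners, PSME3, PSME4, PSMF1, the 3 smallest p-values and the extremes of level in each role group, 3 genes of each further list and COL8A1 (some results are not reported here), and any other gene was named after its values were seen. Gene models came from GENCODE 29 (GRCh38, the hg38 build), which held all 48 members. Library pairs of a group differed by more than sampling noise (chi-square per degree of freedom 31.1 in NC and 33.8 in COL8A1). Alternatives were other scaling, filters, a replicate block, DESeq2 1.42.0, limma-voom (limma 3.58.1), COL8A1 left out before scaling, sums with processed copies or overlapping genes, other lengths and each library left out. Robust shrinkage, transcript length and leaving a library out of the ratios were added after seeing the data.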

Additional observations from a re-analysis of the deposited data

How the results depend on the processing

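No member passed an adjusted threshold under any alternative run, in which the smallest adjusted p of a member ran from 0.400 (DESeq2) to 0.993 (edgeR without NC replicate 1). Over all genes, edgeR called 2, against 17 without a low-count filter, 180 in DESeq2, 14 with robust shrinkage (added after seeing the data), 1 with the replicate number as a block, and 0 to 3 with a library left out. With the replicate block the class medians were −0.042, −0.057 and −0.143 for core, regulatory and immunoproteasome genes, and it changed no call of a member. The labels do not say that the numbers pair the libraries, and same-numbered libraries deviated from their group means with a correlation of −0.034 over 12049 genes and of 0.213 over the members. Leaving out a library moved the core median between −0.112 and 0.000, the regulatory median between −0.115 and −0.024 and the immunoproteasome median between −0.097 and −0.004. The log2 ratio differences ran from −0.104 to −0.033 for PSMB8 over PSMB5, −0.669 to 0.143 for PSMB9 over PSMB6 and −0.261 to 0.212 for PSMB10 over PSMB7. Of 464 alternative values of the 34 named members, 445 kept their direction and their side of the threshold and 19 turned sign, in 11 genes with small estimates. PSMB8 was −0.001 without a filter and −0.020 summed with overlapping genes, PSME1 was 0.065 and PSMG4 0.15 in such sums. Such sums also carry the changes of the added genes, which for PSMG4 had more counts than the gene itself. With a library left out, PSMB8 ran from −0.097 to 0.108, PSMB10 from −0.512 to 0.195, PSME1 from −0.066 to 0.021, PSME4 from −0.066 to 0.021, PSMB3 from −0.160 to 0.115, PSMC3 from −0.189 to 0.026, PSMD6 from −0.163 to 0.108, PSMD2 from −0.034 to 0.047, PSMD9 from −0.256 to 0.050, PSMD10 from −0.180 to 0.317, PSMG4 from −0.162 to 0.016 and NFE2L1 from −0.038 to 0.476. The cause of these turns was not tested. With 1 library left in a group, that library was assumed to vary like the other group.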
